A study of Mus musculus with 2 samples.

Results

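The proteasome genes of cultured mouse brain pericytes (PCs, the mural cells of small vessels) are described here. Members were all genes whose symbol starts with *Psm*, one of the letters a to g and a digit, which gave 50 of the 31053 genes listed. By role, 14 build the constitutive core particle, 3 are immunoproteasome subunits, 9 belong to the base and 8 to the lid of the regulatory particle, 4 are activators, 1 is an inhibitor and 7 are assembly chaperones. The other 4 are *Psma8* and *Psmb11*, which are tissue restricted, *Psme2b*, a near copy of *Psme2*, and *Psmc3ip*, which shares the symbol pattern but encodes a recombination factor and no subunit. Below, 26S subunits are the 31 constitutive core, base and lid genes of this symbol rule. The lid subunit *Sem1* and the base subunit *Adrm1* have other names and are in none of the sums.

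Both libraries came from brain PCs of wild type female C57BL/6N mice aged 6 to 8 weeks, pooled over 6 mice, and were sequenced as single cells in droplets after passage 5 (PC5) or passage 20 (PC20). The labels name no altered gene and no treatment in either group. The paper's methods give separate isolations for the cultures, whereas the deposited design text speaks of 1, so passage and isolation cannot be told apart. Each passage had 1 library, so no test between passages was possible, and all 95% intervals cover counting error only.

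A cell was kept if it had over 1000 genes and less than 20% of its UMIs (unique molecular identifiers, each tagging 1 captured RNA molecule) in mitochondrial genes. They numbered 9950 of 10629 barcodes in PC5 and 4749 of 4884 in PC20, with medians of 21700 and 33424 UMIs per cell, and 20 kept barcodes occurred in both libraries. Levels are CPM, the UMIs of a gene per 1000000 UMIs of the kept cells, and log2 ratios divide the PC5 level by the PC20 level, so that negative values mean higher in PC20. The UMIs were read at 3′ ends and count captured molecules, so levels were not divided by gene length. Whether different genes were captured equally well was not tested, and comparisons of levels between genes carry that limit. Of the defining PC markers, *Pdgfrb* was at 44.6 CPM in PC5 against 5.43 CPM in PC20, and *Cspg4* had 1237 and 19 UMIs. *Rgs5* had 405 and 0 UMIs, *Anpep* had 431 and 573 UMIs, and *Abcc9* had 1 UMI in each library. In the RNA of these libraries few markers thus bear on the label, and *Anpep* had a higher level in PC20 (3.00 CPM) than in PC5 (1.93 CPM). The paper also reports a check of PC identity by PDGFRβ expression, and shows PDGFRβ staining of PCs at another passage. Of 12 markers of other brain and blood cells, *Cd48* and *Mobp* were at 0 in both libraries and *Ptprc* had 1 and 0 UMIs, whereas the astrocyte genes went opposite ways, with *Slc4a4* at 143 CPM in PC5 against 229 CPM in PC20 and *Aldh1l1* at 1640 UMIs in PC5 against 5 UMIs in PC20. The part of these signals in the values below was not tested.

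The proteasome degrades proteins that carry ubiquitin chains. Its core particle is a barrel of stacked rings, with alpha subunits (*Psma* genes) forming the outer rings and gate and beta subunits (*Psmb* genes) the inner rings, where *Psmb5*, *Psmb6* and *Psmb7* carry the proteolytic sites. The regulatory particle caps the barrel: the ATPases of its base (*Psmc* genes) unfold and feed in the substrate, and the lid removes the ubiquitin. Interferon induces *Psmb8*, *Psmb9* and *Psmb10*, which take the catalytic places in newly built barrels and change which peptides are cut for antigen presentation. When proteasome activity is short, the factor NRF1 (*Nfe2l1*) is known to raise the subunit genes together.

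NRF1 and its relative NRF2 (*Nfe2l2*) bind antioxidant response elements, and the promoter of *Psmb5*, the expressed member that differed most between the libraries, held 1 match to the core of such an element. The 250 bases before its start are shown, from RefSeq on GRCm38.p6, chr14:54617996-54618245, minus strand, 5′ to 3′, where the bases nearest the start lie inside the GENCODE span of the gene, with the match to TGACNNNGC in capitals:
Psmb5 promoter: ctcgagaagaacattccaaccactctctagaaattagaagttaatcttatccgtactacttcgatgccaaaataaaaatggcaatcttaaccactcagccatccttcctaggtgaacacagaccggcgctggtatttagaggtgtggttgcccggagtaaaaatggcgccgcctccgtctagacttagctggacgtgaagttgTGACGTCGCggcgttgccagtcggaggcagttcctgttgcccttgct

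The 31 26S subunits were, as a group, higher in PC20. Their summed level was 2496 CPM in PC5 against 4625 CPM in PC20, with a log2 ratio of -0.89 (95% interval -0.90 to -0.88). Of the 31, 29 were higher in PC20 and 2 in PC5, and the median log2 ratio was -0.91. Of them 21 were below -0.5 and 0 were above 0.5, where 32.7% of the 10504 expressed genes were below -0.5 and 30.2% were above 0.5. Expressed genes are those with a UMI in at least 10% of the kept cells of either library; their median log2 ratio was -0.034, and 48.9% of them were higher in PC5. Of all 50 members 47 were expressed, 39 of them higher in PC20 and 8 in PC5, with 27 below -0.5 and 2 above 0.5. Sizes past 0.5 were common in the whole table, at 62.9% of expressed genes against 29 of the 47 members, so the members stood out in direction and not in how many passed this size.

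**Figure D1:**
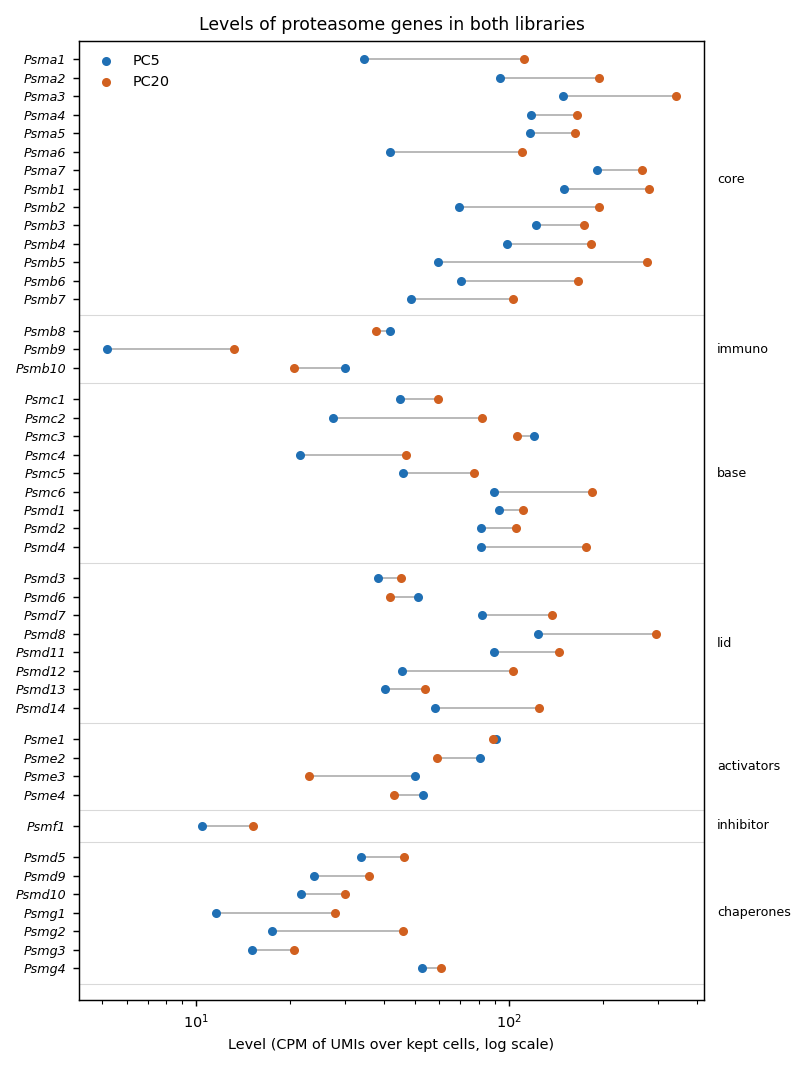
Level of 46 expressed members in each library, in CPM of UMIs over the kept cells on a log axis, in blue for PC5 and orange for PC20, grouped by role. The orange point lies to the right in all 14 core genes and to the left in all 4 activators.

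The core particle differed most among the complexes. Its 14 genes summed to 1363 CPM in PC5 against 2730 CPM in PC20, and all 14 were higher in PC20, with a median log2 ratio of -1.07. A size past 1 was met by 8 of the 14, all higher in PC20, beside 37% of expressed genes in either direction. The alpha ring genes were spread widely. *Psma1* was at 34.4 CPM in PC5 against 112 CPM in PC20, with a log2 ratio of -1.70 (-1.74 to -1.67). *Psma6* had 41.8 and 110.2 CPM, and *Psma3*, the member with the highest level in PC20, had 149 and 342 CPM. The smallest differences among the alpha subunits were those of *Psma7*, the member with the highest level in PC5, at 191 and 266 CPM (log2 ratio -0.48), *Psma4* at -0.49 and *Psma5* at -0.49.

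*Psmb5*, at chr14:54614119-54618022 on the minus strand of GRCm38, encodes the chymotrypsin-like subunit, the main target of the proteasome inhibitors used in myeloma. Its level was 59.5 CPM in PC5 (13263 UMIs) and 277 CPM in PC20 (52970 UMIs), with a log2 ratio of -2.22 (-2.25 to -2.19), or 4.66-fold. It was the largest ratio in size among the expressed members. Cells were also thinned to 1 common number of UMIs, with 1103 shallower PC5 cells and 275 shallower PC20 cells left out. At that depth 43.4% of PC5 cells had a *Psmb5* UMI, against 91.5% of PC20 cells. Without thinning the shares were 66.5% and 97.5%.

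The other catalytic genes differed less. *Psmb6*, the caspase-like subunit, was at 70.5 CPM in PC5 against 166 CPM in PC20, and *Psmb7*, the trypsin-like subunit, was at 48.8 and 103 CPM, with log2 ratios of -1.24 and -1.08. The 3 catalytic genes together had 179 CPM in PC5 against 546 CPM in PC20. In PC20 *Psmb5* was thus the most abundant of the 3, while in PC5 it lay between *Psmb7* and *Psmb6*. Of the structural beta subunits, *Psmb2* had 69.4 and 193 CPM (log2 ratio -1.48), *Psmb1* 150.3 and 281 CPM, *Psmb4* 98.3 and 184 CPM, and *Psmb3* 122 and 174 CPM with a ratio of -0.51, the smallest of the beta ring.

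**Figure D2:**
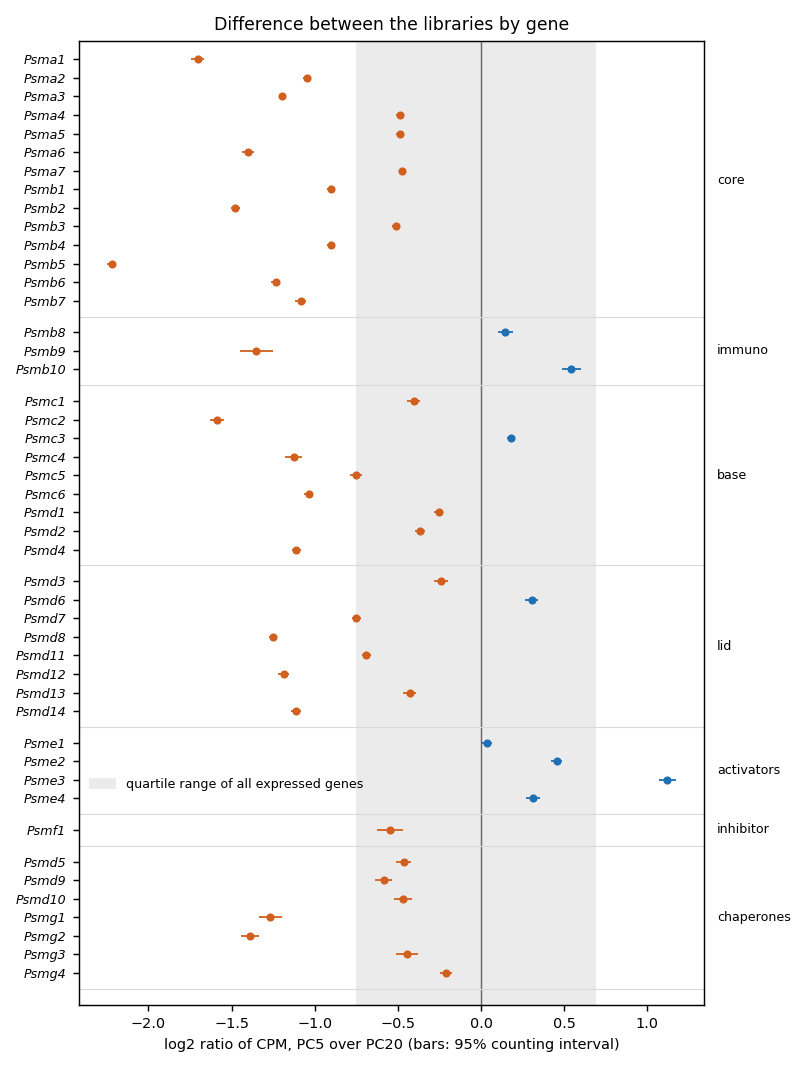
log2 ratio of CPM, PC5 over PC20, of 46 expressed members with 95% counting intervals, by role, in orange where higher in PC20 and blue where higher in PC5. The grey band is the middle 50% of all expressed genes, from -0.75 to 0.69, and *Psmb5* at -2.22 and *Psme3* at 1.12 are the ends.

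The immunoproteasome subunits did not share the direction of the core. *Psmb8* (chr17:34197721-34201454), which replaces *Psmb5*, was at 41.6 CPM in PC5 against 37.6 CPM in PC20, with a log2 ratio of 0.14 (0.10 to 0.19). The *Psmb8* ratio was 0.089 after thinning. In cells with no *Mki67* or *Top2a* UMI it was 0.048, with an interval that spans 0 (-0.035 to 0.13). *Psmb10* (chr8:105935735-105938444), which replaces *Psmb7*, was at 30.0 and 20.6 CPM, with a ratio of 0.54 (0.49 to 0.60). That ratio was 0.27 in cells with no UMI of the cell cycle genes *Mki67* and *Top2a* and 0.47 after thinning, both under the size of 0.5. *Psmb9* (chr17:34181987-34187764), which replaces *Psmb6*, went the other way, with 5.20 CPM in PC5 against 13.3 CPM in PC20 (log2 ratio -1.35). The sum of the 3 was 76.8 CPM in PC5 against 71.5 CPM in PC20, with a log2 ratio of 0.10 (0.07 to 0.14) whose sign turned to -0.033 in cells with no *Mki67* or *Top2a* UMI.

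Set against the subunit it replaces, *Psmb8* made up 41.2% of the UMIs of its pair with *Psmb5* in PC5 (95% Clopper-Pearson interval 40.5 to 41.8) and 12.0% in PC20 (11.7 to 12.2). *Psmb10* made up 38.1% of its pair with *Psmb7* in PC5 (37.3 to 38.8) and 16.6% in PC20 (16.1 to 17.1). Both shares were lower in PC20. For the first pair most of the difference lay in *Psmb5*, since *Psmb8* itself differed by 1.11-fold between the libraries. For the second pair both genes differed, with *Psmb10* 1.46-fold higher in PC5 and *Psmb7* 2.12-fold higher in PC20. *Psmb9* stayed a small part of its pair with *Psmb6*, at 6.87% in PC5 (6.49 to 7.26) and 7.40% in PC20 (7.13 to 7.69), as both genes were higher in PC20. These are shares of captured RNA molecules and not of assembled particles.

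**Figure D3:**
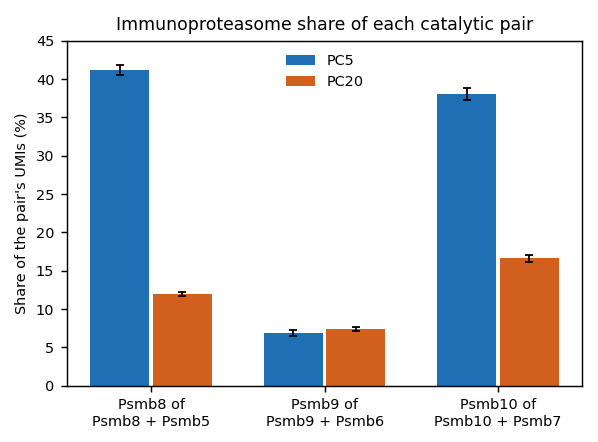
Share of each immunoproteasome subunit in the UMIs of its pair with the constitutive subunit it replaces, in percent, with 95% Clopper-Pearson intervals, by library. The *Psmb8* bar is 41.2% in PC5 and 12.0% in PC20, and both *Psmb9* bars are under 8%.

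The base had a smaller difference than the core, with 605 CPM in PC5 against 948 CPM in PC20 and a median log2 ratio of -0.75. Its 6 ATPases, which form a single ring, did not move alike. *Psmc2* was at 27.3 CPM in PC5 against 82.0 CPM in PC20 (log2 ratio -1.59), and *Psmc4* at 21.5 and 47.0 CPM (-1.13). *Psmc6* (89.5 and 184 CPM) and *Psmc5* (45.8 and 77.1 CPM) lay between them and *Psmc1*, at 44.8 and 59.3 CPM. *Psmc3* was the exception, with 120.2 CPM in PC5 against 106 CPM in PC20, with a ratio of 0.18. Of the base subunits that are no ATPases, the ubiquitin receptor *Psmd4* was at 81.5 and 176 CPM (log2 ratio -1.11), while the large scaffold subunits *Psmd1* (93.0 and 111 CPM) and *Psmd2* (81.6 and 105 CPM) had ratios of -0.26 and -0.37.

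The 8 lid members of the symbol rule summed to 528 CPM in PC5 against 948 CPM in PC20, with 7 of 8 higher in PC20. The lid subunit *Sem1*, outside the rule, went the other way, at 763 CPM in PC5 against 415 CPM in PC20. In PC5 it alone was above the sum of the 8, so the lid and 26S sums describe only the members of the rule. *Psmd14*, the deubiquitinase that cuts the chain from the substrate, was at 57.9 CPM in PC5 against 125 CPM in PC20, with a log2 ratio of -1.11. *Psmd8* was the most abundant of the 8 lid members, at 124 and 296 CPM (-1.25), and *Psmd12* had 45.4 and 103 CPM (-1.19). *Psmd7*, the partner of *Psmd14* in the catalytic dimer, was at 81.8 and 138 CPM. *Psmd11* had 89.6 and 145 CPM, *Psmd13* 40.2 and 54.1 CPM and *Psmd3* 38.1 and 45.1 CPM. The exception was *Psmd6*, at 51.4 CPM in PC5 against 41.6 CPM in PC20 (log2 ratio 0.30). The order of the 26S subunits by level was partly kept between the libraries, with a Spearman rho of 0.75 across the 31 genes and 0.60 across the 14 core genes; genes of 1 library share its depth and are not independent.

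The activators, which can cap the core in place of the regulatory particle, were the only group of members with every gene higher in PC5, a direction that *Psme1* lost in cells with no *Mki67* or *Top2a* UMI (-0.071) and after thinning (-0.0080). *Psme3*, which encodes the nuclear PA28 gamma ring, was at 50.0 CPM in PC5 against 23.0 CPM in PC20, with a log2 ratio of 1.12 (1.07 to 1.17). *Psme4*, which encodes the PA200 activator, had 53.3 and 42.9 CPM. *Psme1* and *Psme2*, the interferon-inducible PA28 alpha and beta genes, had 91.0 and 88.7 CPM (log2 ratio 0.036) and 81.1 and 59.1 CPM (0.46). The inhibitor *Psmf1* was low in both libraries, at 10.4 and 15.2 CPM.

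The 7 assembly chaperones followed the subunits in direction. All were higher in PC20, with a sum of 176 CPM in PC5 against 267 CPM in PC20, and 3 were below -0.5 (32.7% of expressed genes were). *Psmg1* and *Psmg2* form the dimer on which the alpha ring is built, and they had the largest ratios of the 7, at 11.6 and 27.8 CPM (log2 ratio -1.27) and 17.5 and 45.8 CPM (-1.39). *Psmg3* and *Psmg4*, the second chaperone pair of the alpha ring, had ratios of -0.45 and -0.21. The base chaperones *Psmd5*, *Psmd9* and *Psmd10* had ratios of -0.46, -0.59 and -0.47.

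The 3 members below the expression limit were *Psmb11*, the thymus subunit, with 5 UMIs in PC5 and 12 in PC20, *Psme2b* with 801 and 234 UMIs, and *Psma8*, the testis alpha subunit. *Psma8* had 205 UMIs in PC5 and 0 in PC20, which makes it at least 58.6-fold higher in PC5 when PC20 is set at a floor of 3 UMIs. It was found in 1.03% of thinned PC5 cells, and no expression was read from so low a share. *Psmc3ip*, the recombination factor, was at 5.12 CPM in PC5 against 16.5 CPM in PC20.

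In thinned cells the 26S subunits summed to a median of 25 UMIs per PC5 cell, with the middle 80% of cells from 17 to 36, and to a median of 51 UMIs per PC20 cell, from 34 to 67. The difference was thus spread over the cells and did not rest on a small set of them. The variance over the mean of this sum was 2.53 in PC5 and 3.47 in PC20. For single 26S genes the median of that ratio was 1.09 and 1.14, beside 1.09 and 1.14 for all expressed genes in the same range of means. Genes were not matched by level within that range, so spread at equal level was not compared. For *Psmb5* the ratio of variance to mean was 1.20 in PC5 and 1.44 in PC20.

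**Figure D4:**
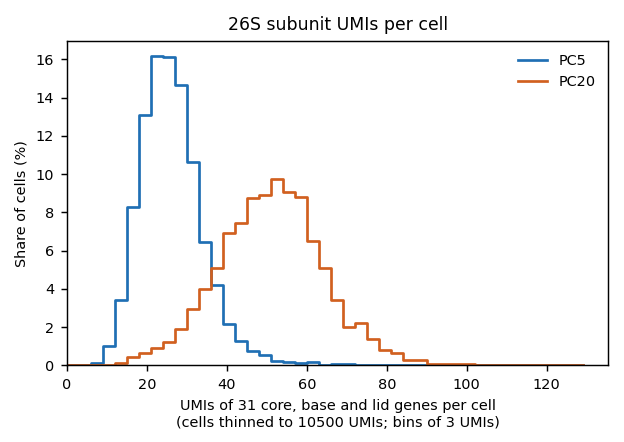
Distribution of the summed UMIs of the 31 26S genes per cell, with every cell thinned to the common number of UMIs, as percent of the cells of each library in bins of 3 UMIs. The median is 25 UMIs in PC5 and 51 UMIs in PC20, and the curves overlap.

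Since PC20 cells were deeper, the 26S level was also read in 5 equal bins of cells ordered by UMIs. It lay between 2416 and 2652 CPM in the PC5 bins and between 4146 and 5095 CPM in the PC20 bins, so every PC20 bin was above every PC5 bin. In PC20 the deepest bin, with a median of 71450 UMIs, was the lowest.

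Cells with a UMI of *Psmb8* more often also had one of the other interferon-inducible members. Among thinned PC5 cells a *Psmb9* UMI was found in 8.44% of 2832 cells with a *Psmb8* UMI (7.44 to 9.52) and in 4.34% of 6015 cells without (3.84 to 4.88). For *Psmb10* the shares were 30.5% and 23.8%, and for *Psme1* 64.2% and 52.5%. For *Psmb5* they were 45.5% and 42.3%. In PC20 the 1356 cells with a *Psmb8* UMI had *Psmb9* in 16.4% (against 11.7% of the 3118 without), *Psmb10* in 22.4% (against 18.2%) and *Psme1* in 64.4% (against 55.8%), while *Psmb5* was found in 91.2% and 91.6%. In PC20 the *Psmb5* share was near its ceiling, which leaves little room for a difference. *Psmb7*, further from the ceiling, was found in 66.6% of PC20 cells with a *Psmb8* UMI and 67.4% of those without. For *Psmb6* the PC20 shares were 80.9% and 81.2%. The PC5 shares were 39.8% and 39.4% for *Psmb7* and 50.1% and 48.0% for *Psmb6*. Cells do not replicate a passage, and no test was made over them.

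Proliferating cells, taken as those with a *Mki67* or *Top2a* UMI, were compared with the rest. Before thinning they made up 4475 of the kept PC5 cells and 3428 of the kept PC20 cells, and they were deeper than the rest, with medians of 25567 against 19195 UMIs in PC5 and 37658 against 26024 in PC20. In thinned PC5 cells the 26S genes summed to 2611 CPM in the 3125 cells with such a UMI and 2374 CPM in the 5722 without, with a log2 ratio of 0.14, and 28 of 31 genes were higher in cells with one. In thinned PC20 cells the sums were 4885 and 4721 CPM, with a ratio of 0.05 with 25 of 31 higher, but without thinning the PC20 sums were 4603 and 4716 CPM with 12 of 31 higher, so the PC20 direction was not the same in both. Thinning also left out shallow cells and moved cells between the classes, with 1321 PC20 cells lacking such a UMI before thinning and 1900 after. Over all expressed genes 60.5% in PC5 and 51.7% in PC20 were higher in thinned cells with such a UMI. Of the 26S genes the scaffold *Psmd1* had the highest ratio in the thinned cells of both libraries, at 0.31 in PC5 and 0.35 in PC20. *Psmb10* was lower in cells with such a UMI, at -0.12 and -0.45, as was *Psmb8*, at -0.10 and -0.25. For the 26S sum the within-library differences were smaller than that between the libraries. Without thinning, the log2 ratio between the libraries was -0.82 among cells with such a UMI and -0.99 among cells without. Also without thinning, the within-library log2 ratio was 0.14 in PC5 and -0.035 in PC20.

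**Figure D5:**
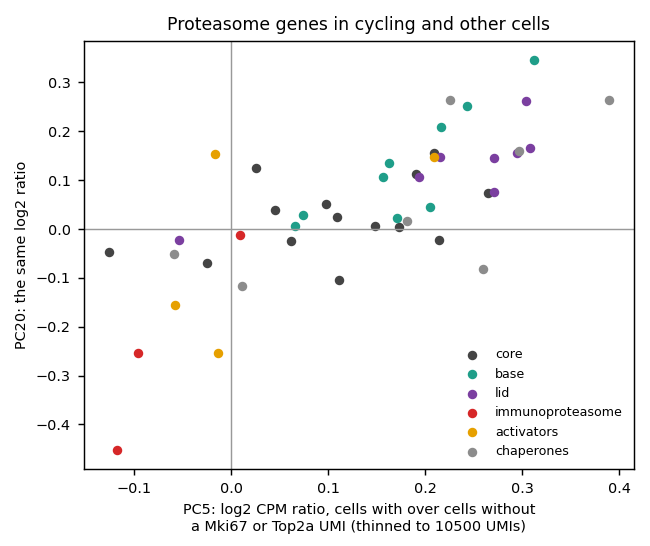
log2 CPM ratio of cells with over cells without a *Mki67* or *Top2a* UMI, PC5 on the x axis and PC20 on the y axis, in cells thinned to the common number of UMIs. Each point is an expressed core, base, lid, immunoproteasome, activator or chaperone gene, coloured by role. The inhibitor *Psmf1* and the recombination factor *Psmc3ip*, at 1.64 in PC5 and 1.83 in PC20, are not drawn. *Psmd1* is at 0.31 and 0.35 and *Psmb10* at -0.12 and -0.45; without thinning, 12 and not 25 of the 31 26S genes lie above 0 in PC20.

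Genes that work with the proteasome but are named otherwise gave a mixed picture. The counts of the lists below stand beside 32.7% of expressed genes below -0.5 and 30.2% above 0.5, and nothing is read from the counts of lists this short. Of 7 expressed partners 3 were below -0.5 and 1 above 0.5. The deubiquitinase *Uchl5* (17.7 CPM in PC5 against 64.4 CPM in PC20), the redox protein *Txnl1* (90.9 and 314 CPM) and the scaffold factor *Ecpas*, listed as AI314180 (26.6 and 88.1 CPM), were higher in PC20. *Sem1*, a small lid subunit outside the symbol rule, was at 763 and 415 CPM, with a log2 ratio of 0.88 opposite to 7 of the 8 lid members. The core maturation factor *Pomp* had 173 and 132 CPM, and the ubiquitin receptor *Adrm1* 27.0 and 27.5 CPM.

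Of 9 shuttle and p97 genes, which bring substrates to the proteasome, 2 were above 0.5, led by *Nploc4* at 0.89, and 2 below -0.5, led by *Rad23b* at -0.64. Among 5 regulators of proteasome genes and of its nuclear import, *Nfe2l1* was at 164 CPM in PC5 against 135 CPM in PC20. *Nfe2l2* was at 106 and 176 CPM, *Ngly1*, an N-glycanase that acts on NRF1, at 21.1 and 10.1 CPM, and *Akirin2*, the import factor, at 63.3 and 127 CPM. Of these 5 genes 1 was above 0.5 and 2 were below -0.5. Of the genes that encode ubiquitin, the stress-inducible polyubiquitin gene *Ubb* (357 and 1217 CPM) was higher in PC20, whereas the ribosomal fusion gene *Rps27a* (7669 and 5967 CPM) was higher in PC5.

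Of 8 antigen presentation genes 7 were expressed, 1 above 0.5 and 2 below -0.5. *Tap1*, the peptide transporter gene next to *Psmb9*, was at 16.6 CPM in PC5 against 26.4 CPM in PC20, in the direction of *Psmb9*. *B2m*, the light chain of class I molecules, was at 421 and 976 CPM, while *Tapbp*, the peptide loading factor tapasin, was at 45.7 and 23.1 CPM. The interferon response factor *Irf1* (16.9 and 13.8 CPM) was a little higher in PC5, as was *Psmb8* when read over all kept cells.

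The members lie on 16 chromosomes, so neighbourhood does not join most of them. In the annotation 13 overlap a listed gene on the opposite strand, among them *Psmb9* with *Tap1*, *Psmb7* with *Nek6* and *Psmc3* with *Slc39a13*, and 4 overlap one on the same strand, among them *Psma2* with AW209491 and *Psmd1* with Gm21972. Whether strand was used in counting is not given in the sources used here, and any effect of such overlaps on the UMIs was not tested.

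Promoters were matched for 42 members, and 250 bases before each start were searched on both strands. A member was counted once if any of its promoters matched, and 3 members had more than 1. The shares of all promoters are per promoter, so the bases of the shares differ slightly. The antioxidant response element core TGACNNNGC was found in 4 of 25 26S subunits with a promoter (16%), beside 10.2% of 32851 promoters. The matches are shown for comparison with the *Psmb5* site above, on GRCm38.p6, with the matched letters in capitals, read along the gene's strand so that a match of the other strand appears as its reverse complement. They lie at chr14:54618024-54618052 on the minus strand for *Psmb5*, and on the plus strand at chr11:70525338-70525356 for *Psmb6*, chr14:45329587-45329615 for *Psmc6* and chr11:107479278-107479299 for *Psmd12*:
Psmb5 site: cgtgaagttgTGACGTCGCggcgttgcca
Psmb6 site: ctaaagagagTGACGGAGC
Psmc6 site: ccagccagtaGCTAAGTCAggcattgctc
Psmd12 site: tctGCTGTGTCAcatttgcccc

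These 4 genes had log2 ratios of -2.22, -1.24, -1.04 and -1.19, all higher in PC20, as were 29 of the 31 26S genes. Their matches begin 47, 9, 227 and 247 bases before the start. The GC box GGGCGG was found in 14 of the 25 genes (56%), beside 32.7% of all promoters, and the CCAAT box in 10 (40%), beside 33.8%. The cyclic AMP response element TGACGTCA was found in 0 of the 25 and in 1.55% of all. Of the interferon-related motifs, GAAANNGAA was found in 2 of the 25 (8%), beside 7.13% of all, and in 0 of the 3 immunoproteasome genes. Among 6 chaperones GAAANNGAA and TGACNNNGC were found in *Psmd9* and TTCNNNGAA in *Psmg1*. None of these motifs was found in the 4 activators, which include the interferon-inducible *Psme1* and *Psme2*. TTCNNNGAA was found in 0 of the 25 and in 1 of the 3 immunoproteasome genes, beside 7.02% of all. That match lies in the *Psmb8* promoter, at chr17:34198088-34198116 on the plus strand, inside the GENCODE span of the gene and before its RefSeq start, and is shown because the gene is interferon-inducible:
Psmb8 site: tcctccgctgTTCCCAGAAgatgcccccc
A match to a motif describes the letters in this window and does not show that a factor binds there.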

How the data were processed

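Deposited values are UMI counts per gene and barcode, made by the authors with Cell Ranger 5.0 (per the submitters' processing notes) on mm10 from a 3′ droplet kit (v3.1), without normalization. The annotation used for counting is not given in the sources used here. Libraries were grouped by their passage labels. Cells with more than 1000 genes and under 20% mt- UMIs were kept, and no doublet caller was run. UMIs were summed over cells and scaled to 1000000. Intervals at the 95% level are exact Poisson (CPM), conditional binomial (log2 ratio) or Clopper-Pearson (shares). With 1 library per passage no p-value was computed, and a log2 ratio past 0.5 in size stood in for a test. For values per cell, every cell was thinned to 10500 UMIs. Every gene matching the symbol pattern was named or counted, and of the other pathway lists, whose members were all counted, the largest ratio per direction and any gene a sentence needs were named, apart from some list genes that are not reported here. Members and lists were chosen with earlier results of these data known. Positions are from GENCODE M21 (GRCm38) and promoters from RefSeq (GRCm38.p6). Alternatives were other cell filters, library sizes, centring, cell weights, detection limits and thresholds; a split of thinned cells by *Mki67* and *Top2a* was added after seeing the data. The computation was tested on simulated libraries. Python 3.11.15, numpy 2.4.6 and scipy 1.17.1 were used.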

Additional observations from a re-analysis of the deposited data

How the results depend on the processing

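No paired analysis was possible because each passage has 1 library, and for the same reason no library could be left out. The summed 26S log2 ratio of -0.89 was -0.89 with more than 2000 genes and under 10% mt- UMIs, -0.96 without the 5% of cells with the most UMIs, -0.99 in cells with no *Mki67* or *Top2a* UMI, -0.82 in cells with one, -0.97 after thinning, -0.87 with mitochondrial and ribosomal protein genes left out of the library size, -0.93 as a mean over cells and -0.86 after centring on the median expressed gene. The summed immunoproteasome ratio of 0.10 was -0.033 in cells with no *Mki67* or *Top2a* UMI, 0.042 after thinning and 0.14 after centring. The 2 members above 0.5 became 1 without the 5% of deepest cells, in cells with no *Mki67* or *Top2a* UMI, after thinning, as a mean over cells and at a threshold of 1, and 0 with a pseudocount of 1 on the mean over cells, but 3 with a detection limit of 1% of cells. The 27 members below -0.5 became 15 with that pseudocount, 19 at a threshold of 1 and 24 in cells with a *Mki67* or *Top2a* UMI. They became 34 without the 5% of deepest cells and 32 after thinning and in cells with no *Mki67* or *Top2a* UMI. No share over all expressed genes is given at these settings, apart from 37% past a size of 1 in either direction. Whether the members or all genes moved thus cannot be told from these counts. Of the 47 expressed members, 1 changed sign (*Psme1*) in cells with no *Mki67* or *Top2a* UMI and after thinning, and 0 under the other scalings and filters. Passage and isolation cannot be told apart, the spread between cultures was not measured, and an RNA level says nothing of assembled particles. Genes with few UMIs, such as *Psmb11*, allow no statement on a difference.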
